A study of Mus musculus with 2 samples.

Results

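The Rab GTPases and the genes named for regulating them were followed through the synovial myeloid cells of arthritic mice that had received β-glucan or PBS before arthritis. The members were chosen by symbol alone: every feature named Rab, Tbc1d, Dennd or Rabgap followed by a number and, where present, letters. The rule found 112 of 32524 features, of which 59 were Rab GTPases, 32 carried a TBC (Rab GAP) name and 16 a DENN (Rab GEF) name. It also took in 2 genes that encode no Rab, TBC or DENN protein, Rab3ip and Rab5if, and 3 antisense RNAs, Rab10os, Rab26os and Tbc1d22bos, which are given apart from the rest.

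Rab proteins are small GTPases that mark the membranes of the cell and direct the budding, movement and fusion of vesicles. DENN-domain proteins load a Rab with GTP and so switch it on, TBC-domain proteins speed its hydrolysis of GTP and so switch it off, and GDI proteins and prenylation factors carry it to and from membranes. In macrophages the Rabs of the early endosome, the recycling endosome and the lysosome order the maturation of the phagosome, and the Rabs of lysosome-related organelles serve granule release in mast cells, neutrophils and cytotoxic lymphocytes.

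CD45+CD11b+ cells were sorted from the synovium of wild-type mice at day 17 of arthritis, and 3′ single-cell RNA libraries were made with 1 library of pooled animals per group. One group had received β-glucan, a fungal wall polysaccharide that induces trained immunity, and the other PBS, and both then developed arthritis. The sample labels describe arthritis induced by anti-collagen antibodies followed by lipopolysaccharide. The series design text and the paper's methods for these libraries instead give K/BxN serum transfer. Both groups were treated alike in either account. No map from cells to mice was given, so the 2 libraries were compared without a replicate check, no test was possible, and every interval printed covers counting error only.

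The β-glucan library held 7196 barcodes and the PBS library 5760, with 81611849 and 73874602 unique molecular identifiers (UMIs). Cells under 500 genes or above 10% mitochondrial UMIs were removed, which left 5696 and 4553 cells, with medians of 12457.5 and 14475 UMIs. Of the barcodes, 7 occurred in both libraries, 2 of them among kept cells. The clusters that scored best on macrophage or antigen-presenting markers, called the compartment here, held 4598 β-glucan cells and 3666 PBS cells. They include cluster 3 (525 and 418 cells) and cluster 9 (204 and 151 cells), which were left unnamed because of their leading genes. Ptprc, which encodes CD45, stood at 576 and 566 counts per 1000000 UMIs (CPM) in the compartment and Itgam, which encodes CD11b, at 347 and 355 CPM. Outside it lay neutrophil-like, mast-like, B-like, T-like, NK-like, stromal-like, endothelial-like and proliferating cells, and the stromal-like cells stood at 39.0 and 45.7 CPM of Ptprc. In each pair of values the β-glucan library comes first unless stated.

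To show the data behind the family, the 250 bases upstream of a RefSeq start site (build GRCm38.p6) are printed for 3 DENN genes, all 5′ to 3′ on the strand of the gene. Dennd1a had the highest ratio of β-glucan over PBS among members at 20 CPM or more, Dennd4a the lowest, and Dennd6a was the only member at 20 CPM or more past a 1.2-fold difference whose windows held a searched motif. The motifs were the E-box CACGTG and the M-box TCATGTG, the latter read on both strands (CACATGA on the other), which do not overlap each other; both are sequences that MITF, a basic helix-loop-helix factor, can bind. Capitals mark the E-box and all other bases are in lower case.
Dennd1a, chr2:38287385-38287634, minus strand: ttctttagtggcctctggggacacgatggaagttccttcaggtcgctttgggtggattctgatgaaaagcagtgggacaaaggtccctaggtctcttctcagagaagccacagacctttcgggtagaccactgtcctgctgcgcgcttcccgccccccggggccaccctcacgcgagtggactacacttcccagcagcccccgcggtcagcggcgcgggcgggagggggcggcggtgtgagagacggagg
Dennd4a, chr9:64810761-64811010, plus strand: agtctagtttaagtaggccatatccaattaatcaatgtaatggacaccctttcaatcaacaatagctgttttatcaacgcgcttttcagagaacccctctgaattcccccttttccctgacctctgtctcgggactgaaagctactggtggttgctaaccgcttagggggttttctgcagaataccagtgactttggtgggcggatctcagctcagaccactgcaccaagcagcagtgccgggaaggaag
Dennd6a, chr14:26579300-26579549, plus strand: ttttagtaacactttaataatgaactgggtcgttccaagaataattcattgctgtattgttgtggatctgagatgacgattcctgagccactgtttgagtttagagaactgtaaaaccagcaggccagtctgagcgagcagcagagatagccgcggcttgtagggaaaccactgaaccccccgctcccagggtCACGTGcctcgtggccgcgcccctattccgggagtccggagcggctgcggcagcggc

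The E-box of Dennd6a began 57 bases before the start site, at position -57, and the second RefSeq window of the gene held another at position -95. Over all 27025 genes with a window, 6.86% held an E-box and 3.72% an M-box. Among the 93 members with a window, 12 held an E-box and 4 an M-box. The E-box stood in 5 of 48 Rab GTPases, 5 of 25 TBC genes and 1 of 15 DENN genes. Dennd1a and Dennd4a held neither motif, and Rab5a, a Rab of the early endosome, held 2 E-boxes. A match is a string of letters in a window and no measure of binding. Mitf itself stood at 655 CPM in the β-glucan compartment and 373 CPM in the PBS compartment.

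Within the compartment, 81 of the 112 members reached a mean of 5 CPM and entered the comparison: 37 Rab GTPases, 29 TBC genes, 12 DENN genes, Rab3ip, Rab5if and Rab10os. Of all 9807 genes at that level, 57.6% were higher with β-glucan and 42.4% lower, 6.86% were at least 1.2-fold higher and 4.42% at least 1.2-fold lower, with a median log2 ratio of 0.03. The Rab GTPases sat at this background: 21 of 37 were higher, 1 passed the fold upward, none passed it downward, and their median log2 ratio was 0.01. The TBC genes were higher in 25 of 29 cases with 1 past the fold and a median of 0.14. The DENN genes were higher in 10 of 12 cases with 4 past the fold upward, 1 downward and a median of 0.15.

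**Figure D1:**
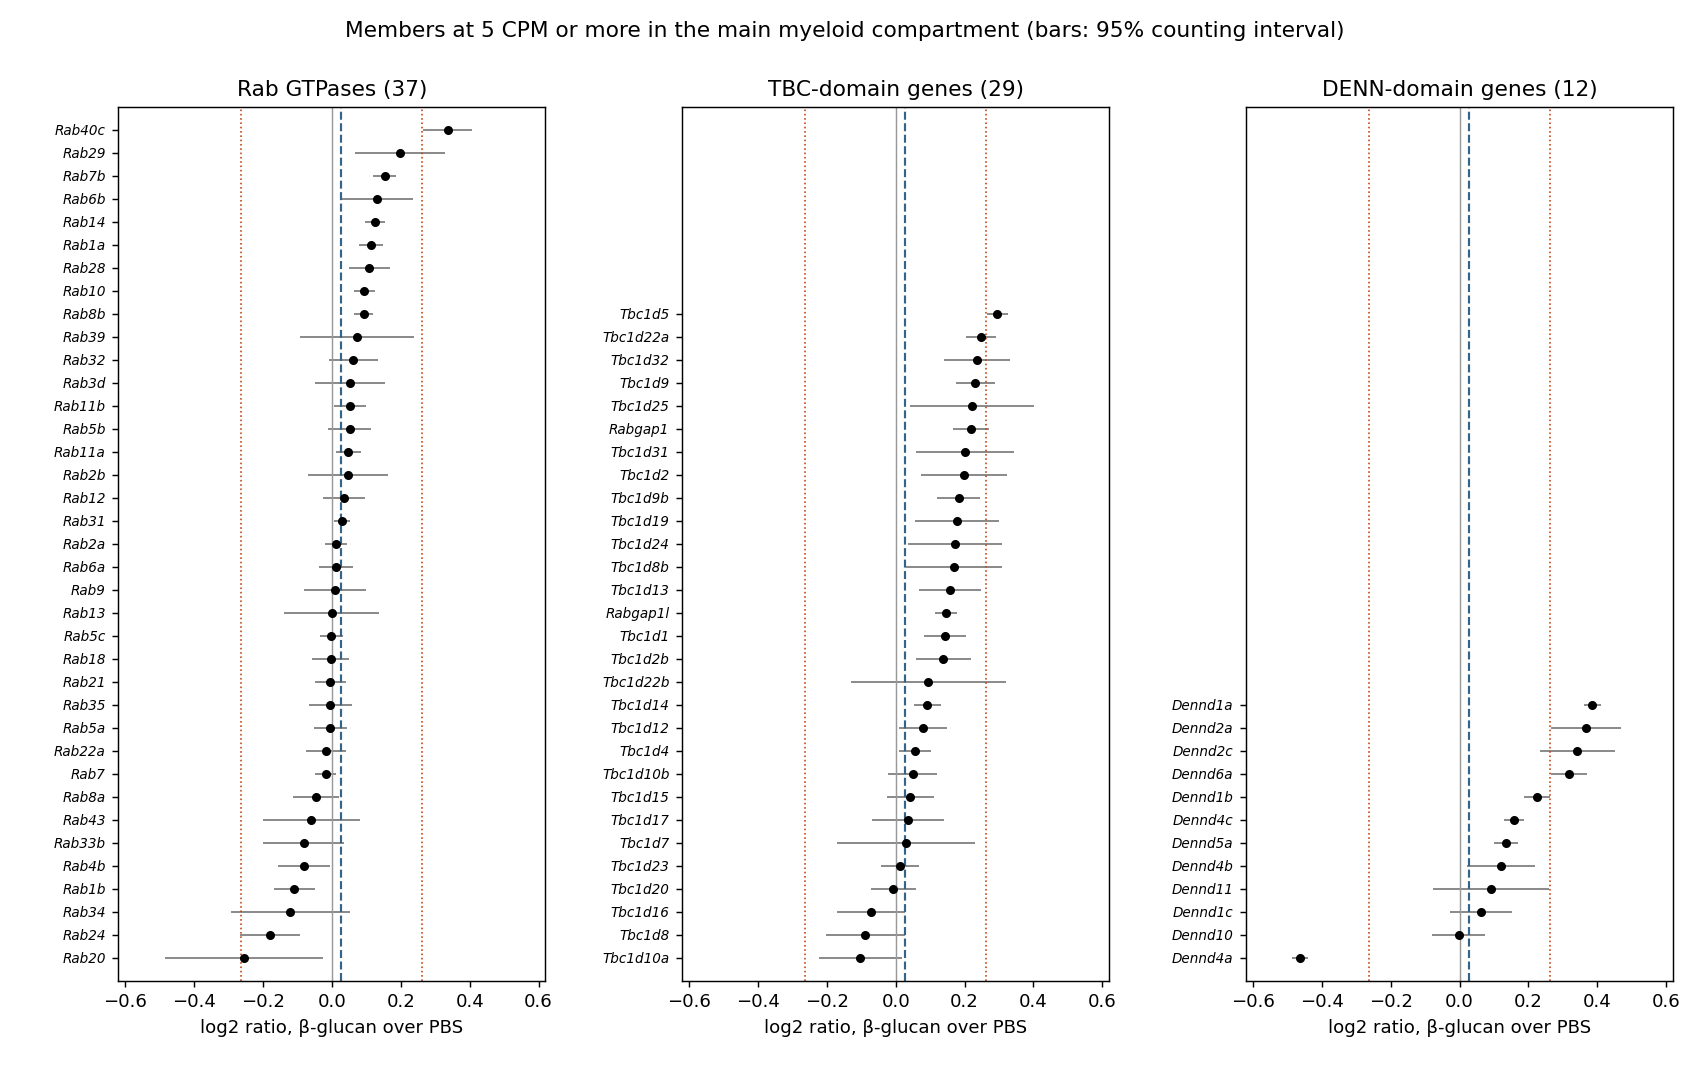
Log2 ratio of β-glucan over PBS in the compartment for each member at 5 CPM or more, by role, from summed UMIs; bars are 95% counting intervals, the dashed line is the median of all genes (0.03) and the dotted lines mark a 1.2-fold difference. The 37 Rab GTPases spread around 0, most TBC and DENN genes lie to the right, and Dennd4a stands alone at -0.46.

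Summed over members, the Rab GTPases stood at 4266 and 4129 CPM in the compartment, from 277810 and 249132 UMIs. The TBC genes together stood at 1954 and 1765 CPM, and the DENN genes at 1849 and 1774 CPM. The DENN sum includes Dennd4a, which was lower with β-glucan and is described with its group. Of the members, 11 are named by the study among its GTPase and vesicle terms, a choice made on these same libraries, so that their direction is no independent evidence: all 11 were higher, with a median of 0.22. Without them, 19 of 35 Rab GTPases (median 0.01), 21 of 25 TBC genes (median 0.09) and 5 of 7 DENN genes (median 0.09) were higher.

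Among the Rabs of the secretory pathway between endoplasmic reticulum and Golgi, 6 of 10 at 5 CPM were higher and none passed the fold. Rab1a, which takes vesicles from the endoplasmic reticulum to the Golgi, stood at 226 and 209 CPM, a log2 ratio of 0.11 (0.08 to 0.15). Its close relative Rab1b went the other way, at 69.4 and 74.8 CPM (-0.11, -0.17 to -0.05). Rab2a and Rab6a, which act at the Golgi, stood at 257 and 254 CPM and at 109 and 108 CPM, with intervals of the log2 ratio that included 0. Rab29, a Rab that recruits the kinase LRRK2, had the highest ratio of this group at 16.4 and 14.3 CPM (0.20, 0.07 to 0.33).

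The early endosome Rabs were close to level in both libraries. Rab5a, Rab5b and Rab5c, which define the early endosome, stood at 110 and 111 CPM, at 67.7 and 65.3 CPM and at 225 and 226 CPM, and each interval included 0. Rab21, Rab22a and Rab31 act on the same and neighbouring endosomes. Rab31 stood at 474 and 465 CPM with a log2 ratio of 0.03 (0.00 to 0.05), a value that turned to -0.00 under TMM scaling, to -0.02 when clusters were weighted equally and to -0.11 when cells were paired on the share of their UMIs on long genes. Rab4b, a Rab of fast recycling, was slightly lower at 44.2 and 46.8 CPM (-0.08, -0.16 to -0.01), whereas Rab4a was scarce at 0.58 and 0.50 CPM. Across this group 2 of 7 were higher, with a median of -0.00.

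Among the recycling and exocytic Rabs 5 of 8 were higher. Rab14, which moves between Golgi and endosomes, stood at 304 and 279 CPM (0.12, 0.10 to 0.15), and Rab10, the exocytic Rab that DENND4 proteins activate, at 293 and 275 CPM (0.09, 0.06 to 0.12). Rab8b behaved alike at 352 and 330 CPM, but Rab8a stood at 57.9 and 59.8 CPM with an interval that included 0. With cells paired on long-gene UMIs, Rab14 stood at 0.09, Rab10 at 0.003 and Rab8b at -0.02. Rab11a and Rab11b, the Rabs of the recycling endosome, had log2 ratios of 0.05 each, at 203 and 197 CPM and at 119 and 115 CPM. Rab35, the Rab that DENND1 proteins activate, stood at 63.9 and 64.1 CPM (-0.00, -0.07 to 0.06). Dennd1a was the DENN gene with the highest ratio, and RNA counts do not measure how active the Rab35 protein is.

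The late endosome and lysosome Rabs split evenly, with 4 of 8 higher. Rab7, which is needed for fusion of late endosomes and phagosomes with lysosomes, stood at 278 and 281 CPM (-0.02, -0.05 to 0.01). Rab7b, which acts between late endosomes and the Golgi, was higher at 229 and 206 CPM (0.15, 0.12 to 0.19). Rab9, which returns cargo from late endosomes to the Golgi, stood at 32.3 and 32.1 CPM. The lowest ratios among the Rab GTPases at 5 CPM lay here: Rab20, a Rab of the maturing phagosome, stood at 4.62 and 5.52 CPM (-0.26, -0.49 to -0.03), just inside the fold, and Rab24, linked to autophagy, at 31.6 and 35.8 CPM (-0.18, -0.27 to -0.09). Rab34, which also acts on phagosomes and in cilia, stood at 8.43 and 9.17 CPM.

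Only Rab40c passed the fold among the Rab GTPases. It encodes a Rab with a SOCS box that serves as a substrate receptor of a ubiquitin ligase, and it stood at 56.8 CPM with β-glucan and 45.0 CPM with PBS, from 3699 and 2715 UMIs (0.34, 0.26 to 0.41). Rab28, a Rab of cilia, stood at 75.8 and 70.3 CPM (0.11, 0.05 to 0.17), but at -0.05 when cells were paired on long-gene UMIs. Of the Rabs of granules and lysosome-related organelles, only Rab32 and Rab3d reached 5 CPM, at 52.2 and 50.0 CPM and at 25.6 and 24.7 CPM. Rab27a stood at 4.65 and 4.19 CPM and Rab38, the partner of Rab32 in pigment granules, at 1.92 and 1.76 CPM.

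The log2 ratios of the TBC genes ran from -0.10 for Tbc1d10a to 0.30 for Tbc1d5. Tbc1d5, a GAP for Rab7 that works with the retromer, stood at 290 and 237 CPM, from 18911 and 14279 UMIs (0.30, 0.26 to 0.33). Tbc1d22a stood at 144 and 121 CPM (0.25, 0.20 to 0.29), Rabgap1 at 106 and 90.7 CPM (0.22, 0.17 to 0.27) and Rabgap1l at 282 and 255 CPM (0.15, 0.12 to 0.18). Of the other GAPs of Rab7, Tbc1d15 stood at 56.8 and 55.2 CPM (0.04, -0.03 to 0.11) and Tbc1d2 at 18.1 and 15.7 CPM (0.20, 0.07 to 0.32). Tbc1d20, a GAP for Rab1, stood at 62.4 and 62.7 CPM, and Tbc1d7, a subunit of the TSC complex rather than an established Rab GAP, at 6.63 and 6.50 CPM.

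The DENN genes held the largest differences in both directions. Dennd1a, an activator of Rab35 in clathrin-mediated endocytosis, stood at 466 CPM with β-glucan and 357 CPM with PBS, from 30361 and 21538 UMIs (0.39, 0.36 to 0.41). Its relative Dennd1b stood at 184 and 158 CPM (0.22, 0.19 to 0.26), and Dennd1c, the third of the trio, at 33.1 and 31.7 CPM (0.06, -0.03 to 0.15). Dennd2a and Dennd2c, activators of Rab9, stood at 29.6 and 22.9 CPM (0.37, 0.27 to 0.47) and at 24.6 and 19.4 CPM (0.34, 0.23 to 0.45). Dennd6a, an activator of Rab14, stood at 105 and 84.1 CPM (0.32, 0.26 to 0.37).

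Dennd4a was the one member past the fold downward. It encodes an activator of Rab10 and lies on chromosome 9 from 64718604 to 64827061 on the plus strand (GRCm39). It stood at 392 CPM with β-glucan and 541 CPM with PBS, from 25527 and 32626 UMIs (-0.46, -0.49 to -0.44). Its relatives went the other way, Dennd4c at 306 and 274 CPM (0.16, 0.13 to 0.19) and Dennd4b at 27.9 and 25.7 CPM (0.12, 0.02 to 0.22). Over the 14 settings tried, the log2 ratio of Dennd4a ran from -0.56 to -0.32. Dennd4a is abundant in neutrophil-like cells, whose 7 marker genes summed to 37.7 and 36.9 CPM in the compartment. Other marker lists differed in both directions. The 10 antigen-presenting markers summed to 7275 and 10848 CPM, the 6 osteoclast markers to 158 and 232 CPM and the 6 proliferation markers to 22.3 and 33.1 CPM. The 8 macrophage markers summed to 8942 and 8544 CPM, and the B-cell, T-cell, stromal and mast lists were also higher with β-glucan. The NK and endothelial lists were slightly lower. The part of the cell mix in the Dennd4a difference was not tested. Cluster 4, antigen-presenting cells with much Dennd4a, held 362 and 506 cells, and 1 cluster of 79 cells held PBS cells alone. With clusters weighted equally the log2 ratio of Dennd4a was -0.43, and without the cluster of PBS cells it was -0.49.

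Rab3ip, which encodes Rabin8, an activator of Rab8, stood at 14.4 and 15.3 CPM, and Rab5if at 111 and 117 CPM (-0.08, -0.13 to -0.04). Rab10os stood at 20.7 and 22.1 CPM, and the 2 other antisense RNAs were below 5 CPM. The remaining members below 5 CPM were 22 Rab GTPases, 3 TBC genes and 4 DENN genes. Rab17 had no UMI in any barcode and Rab9b, Tbc1d21 and Rab3c had 1, 1 and 5, so their levels could not be told from 0 at this depth, where 3 counts in the compartment equal 0.0461 and 0.0497 CPM. Reads of 11 members that overlap another gene on the same strand, among them Rabgap1, Rabgap1l, Dennd1b, Dennd1c, Rab18 and Tbc1d14, may be assigned in part to the neighbour.

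Besides the members, a list of 70 other genes of the Rab cycle was followed, covering activators, GAPs, GDI and prenylation factors and effectors. At 5 CPM, 43 of 58 were higher, 9 past the fold, 2 were past it downward, and the median was 0.11. Of all genes at that level, 57.6% were higher, 6.86% past the fold and 4.42% past it downward, with a median of 0.03. Some of the list, among them Rin2, Gapvd1, Sbf2 and Rabep1, are named by the study among its GTPase and vesicle terms. That choice was made on these same libraries, so their direction is no independent evidence. Of the GDI and prenylation genes, 4 of 7 were higher, with a median of 0.05 and none past the fold. Chm (0.14, 0.07 to 0.21) and Chml (0.18, 0.06 to 0.29) were higher. Gdi2, the main GDI outside the brain, was slightly lower at 556 and 565 CPM (-0.02, -0.04 to -0.002). Among the effectors and activators, Rubcn, a negative regulator of endosome and autophagosome maturation, stood at 35.3 and 27.5 CPM (0.36), and Rin2, an activator of Rab5, at 372 and 298 CPM (0.32). Rab11fip1, an effector of Rab11, was lower at 24.3 and 33.8 CPM (-0.48), and Rin3, a relative of Rin2, was lower at 72.7 and 87.8 CPM (-0.27). Within the 8 larger clusters of the compartment the direction was mixed for both, with Rab11fip1 higher with β-glucan in 3 and Rin3 in 5.

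The difference between the roles went along with the span of the genes, that is, the length from first to last base with introns. The Rab GTPases compared had a median span of 25.3 kb, the TBC genes 68.8 kb and the DENN genes 70.6 kb, against 28.3 kb for all genes. Over all genes the median log2 ratio was -0.06 below 10 kb, -0.00 from 10 to 30 kb, 0.06 from 30 to 100 kb and 0.14 from 100 kb up. Genes of 100 kb and more took 19.5% of the compartment's UMIs with β-glucan and 17.7% with PBS. Whether intron reads were counted is not given in the sources used here.

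Set against the median of genes of similar span, 19 of 37 Rab GTPases (median difference 0.00), 20 of 29 TBC genes (0.04) and 10 of 12 DENN genes (0.08) lay above it. Of the listed other genes of the Rab cycle, 41 of 58 did (0.07). When 3180 cells per library were matched within clusters by how much of their UMI total fell on genes of 100 kb and more, the medians were -0.02 for the Rab GTPases, 0.03 for the TBC genes and 0.05 for the DENN genes, and no member of the 3 groups passed the fold upward. Under this pairing Dennd1a stood at 0.13, Tbc1d5 at 0.08 and Rab40c at 0.17, whereas Dennd4a stood at -0.56. Dennd1a and Tbc1d5, of 488 and 448 kb, are among the genes whose share was matched, so their smaller differences are not independent of the matching. The members past the fold upward that span under 100 kb also had smaller differences in these cells. Rab40c went from 0.34 to 0.17, Dennd2a from 0.37 to 0.19, Dennd2c from 0.34 to 0.13 and Dennd6a from 0.32 to 0.17. Dennd4a, of 108 kb, is also among the genes whose share was matched, so its value under the pairing is not independent of the matching either. The median of all genes went from 0.03 to -0.001 in these cells.

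**Figure D2:**
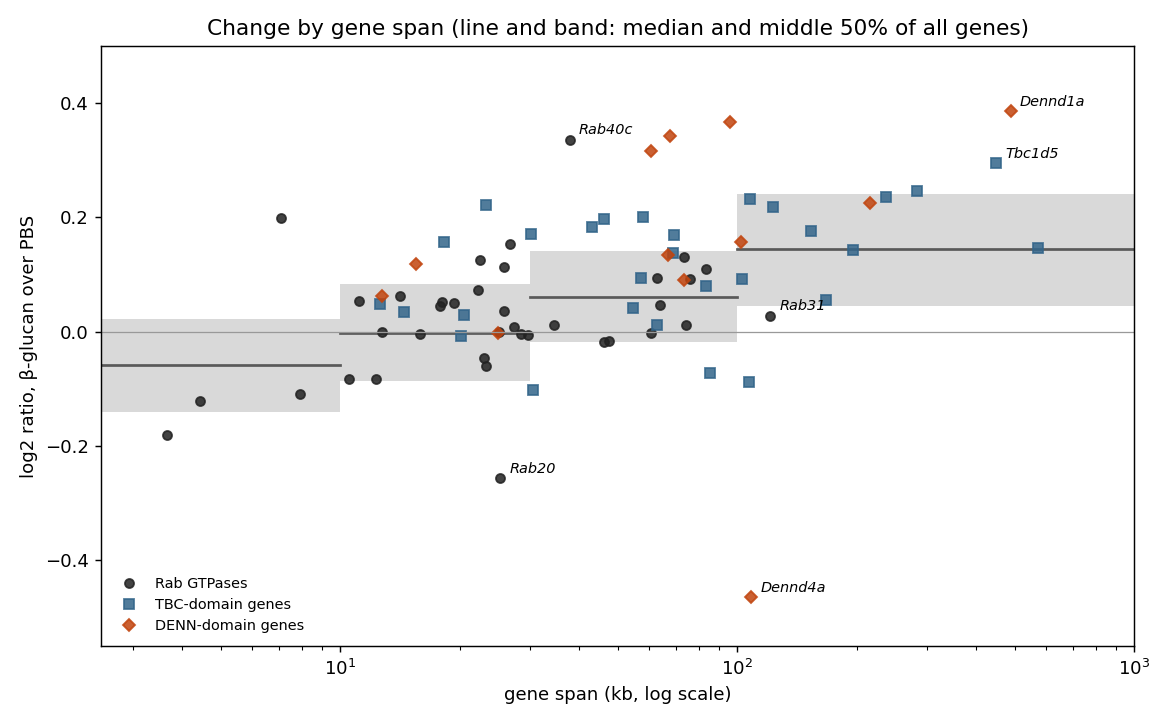
Log2 ratio of β-glucan over PBS in the compartment against gene span in kb on a log axis; points are members by role, and the line and grey band are the median and the middle 50% of all genes in each span class. The all-gene median climbs from -0.06 to 0.14, the long TBC and DENN genes lie around it, and Dennd4a lies at -0.46.

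The compartment was then divided into clusters built without the members, and the libraries were compared cluster by cluster in the 8 that held 100 or more cells of each. Of all genes, 7.93% were higher with β-glucan in all 8 clusters and 5.28% lower in all 8. Rab28 and Rab40c did so upward among the 37 Rab GTPases, as did 7 of 29 TBC genes and 5 of 12 DENN genes. The TBC and DENN genes are longer than the Rab GTPases. The share of genes of similar span that were higher in all 8 clusters was not counted. Lower in all 8 were Dennd4a, Rab7, Rab5if and Rab10os, of which Rab7 differed by a log2 ratio of -0.02 overall.

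Dennd4a differed most in cluster 0, macrophage-like cells led by Ednrb, Cd209f and Cd163, where it stood at 228 CPM with β-glucan and 460 CPM with PBS (-1.01, -1.08 to -0.94). In cluster 2, macrophage-like cells led by Vsig4 and S100b, Dennd4a stood at 305 and 494 CPM (-0.70, -0.76 to -0.63). The smallest difference lay in cluster 4, antigen-presenting cells led by Ccl17 and Cd209a, at 660 and 729 CPM (-0.14, -0.19 to -0.09). Dennd4a was lower with β-glucan by a log2 ratio of 0.14 at least in each of the 8 clusters, and the counting intervals stayed below 0. Dennd1a was higher in all 8 clusters, from 263 and 210 CPM in cluster 4 to 769 and 519 CPM in cluster 9, an unnamed cluster led by the monocyte genes Plac8, Chil3 and Ly6c2.

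**Figure D3:**
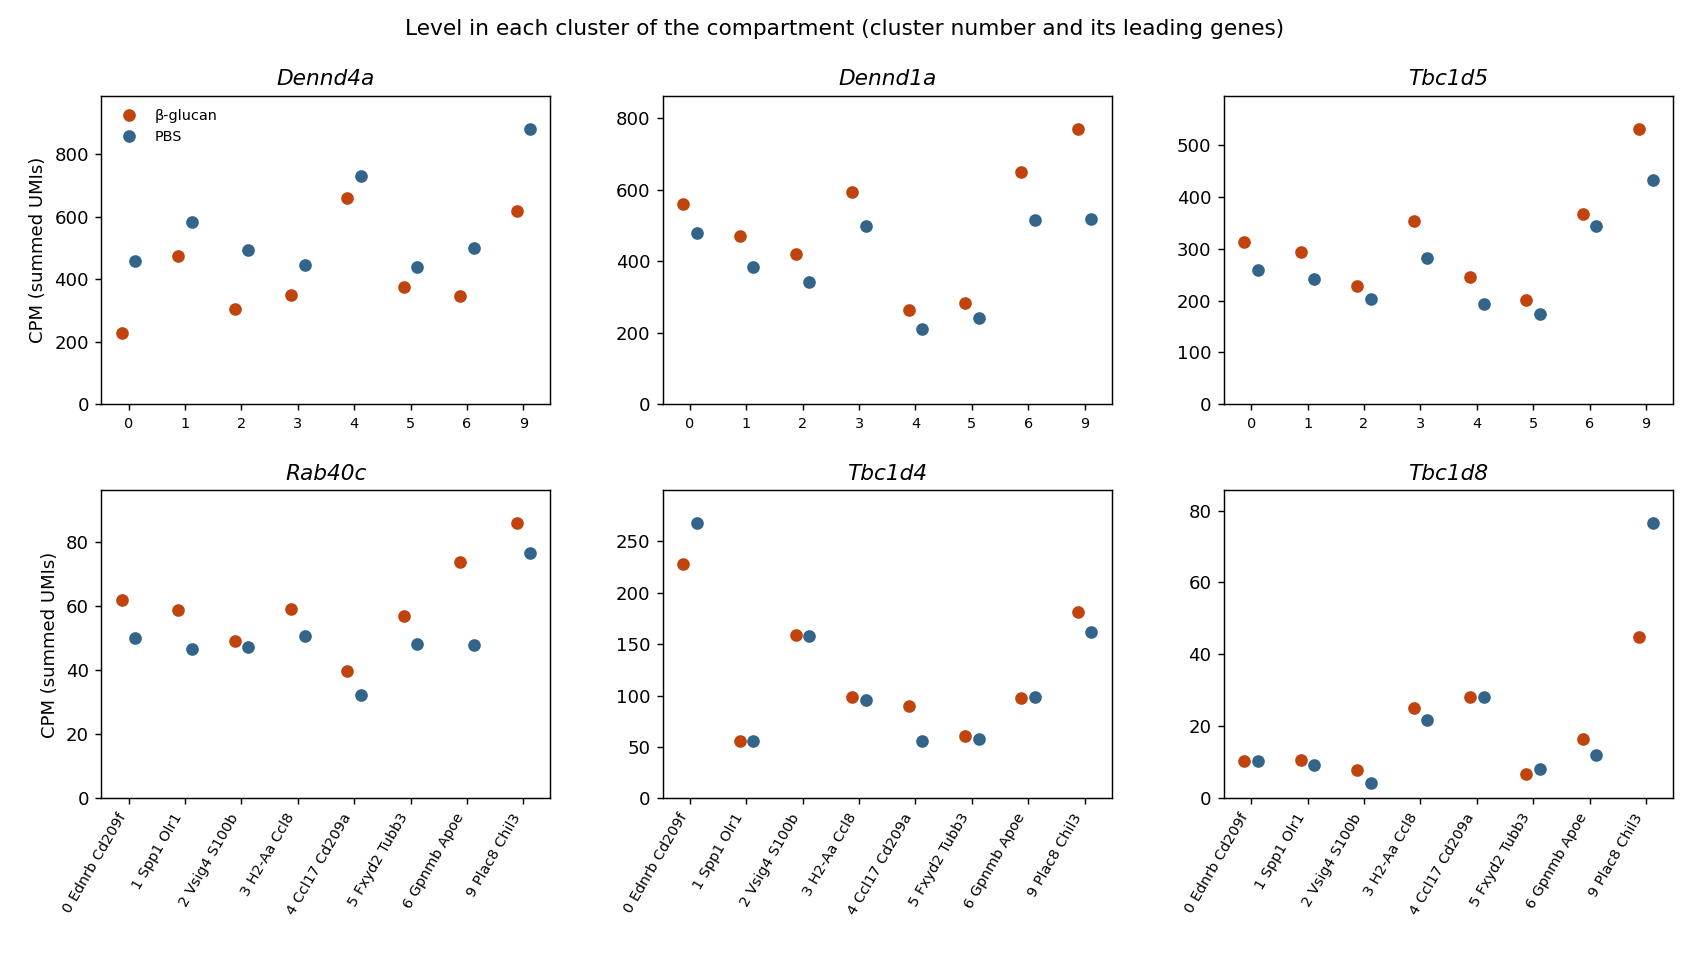
Level in CPM of 6 members in the 8 clusters of the compartment that held 100 or more cells of each library, β-glucan in orange and PBS in blue, with the 2 leading genes of each cluster under the lower row. Dennd4a lies lower with β-glucan in every cluster and Dennd1a, Tbc1d5 and Rab40c higher, while Tbc1d4 and Tbc1d8 differ more between clusters than between libraries.

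The range of each member between the clusters was taken over both libraries. Of all genes at 5 CPM in the compartment and 20 CPM in some cluster, 44.2% were at least 2-fold higher in their highest cluster than in their lowest. The same held for 6 of 31 Rab GTPases, 16 of 25 TBC genes and 7 of 11 DENN genes. The 6 Rab GTPases were Rab11a, Rab31, Rab32, Rab40c, Rab6b and Rab7b, and the Rabs of the general pathways, such as Rab1a, Rab5c and Rab7, were not among them. Rab27a, at 20 CPM in 1 cluster but under 5 CPM in the compartment, was not counted.

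Tbc1d8 had the widest range among the TBC and DENN genes so counted, from 8.01 and 4.24 CPM in cluster 2 to 44.8 and 76.4 CPM in cluster 9, and it was among the leading genes of a small cluster led by Ccl22, Clec9a and Xcr1, where it stood at 438 and 474 CPM. Tbc1d4, which encodes AS160, a GAP that holds back Rab10 and Rab8 in insulin-responsive cells, stood at 228 and 267 CPM in cluster 0 and at 56.0 and 55.8 CPM in cluster 1, macrophage-like cells led by Spp1 and Olr1. The leading genes of cluster 1 also included the muscle genes Tnnc2, Mylpf, Acta1 and Myl1. In cluster 4 the libraries differed for Tbc1d4, at 90.2 and 55.5 CPM (0.70, 0.54 to 0.85). Dennd2a stood at 43.0 and 37.0 CPM in cluster 2 and at 6.74 and 5.10 CPM in cluster 4. Dennd2c ran from 11.1 and 10.4 CPM in cluster 4 to 47.2 and 37.3 CPM in cluster 9. Rab27a was highest in cluster 9 as well, at 22.0 and 30.7 CPM, against 1.61 and 1.14 CPM in cluster 0.

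Across the whole sort, 16 of 85 members at 20 CPM in some class were at least 4-fold above the compartment in a cell class in both libraries, against 26.7% of all genes. Of the 16, 9 were Rab GTPases, 2 TBC genes, 4 DENN genes and the last was Rab3ip. By class, 5 of 59 members passed in neutrophil-like cells (background 4.1%), 6 of 61 in mast-like cells (7.05%), 4 of 57 in B-like cells (6.23%), 4 of 59 in T-like cells (6.29%) and 5 of 55 in NK-like cells (6.47%). In stromal-like cells 4 of 60 passed (14.6%), in endothelial-like cells 4 of 57 (10.9%) and in proliferating cells 0 of 55 (4.31%). Macrophage RNA was also counted outside the compartment: C1qa, a macrophage gene, stood in the lymphocyte-like classes at 23.6% to 27.7% of its compartment level with β-glucan and at 13.1% to 18.3% with PBS. In stromal-like cells C1qa stood at 6.06% and 7.61% of its compartment level.

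Mast-like cells, 97 and 111 of them, held granule Rabs that were near 0 in the compartment. Rab27b, which docks secretory granules, stood at 899 and 956 CPM in them, against 0.38 and 0.20 CPM in the compartment. Rab44, a large Rab of granules, stood at 194 and 234 CPM in mast-like cells and at 0.26 and 0.27 CPM in the compartment. Rab37, another granule Rab, stood at 66.9 and 99.5 CPM in mast-like cells and at 40.2 and 44.7 CPM in T-like cells. Rab27b had no UMI in neutrophil-like cells of either library, which allows up to 0.811 and 1.96 CPM (3 counts), whereas Rab44 stood there at 54.6 and 113 CPM. In the finer neutrophil-like cluster with a median of 4278 UMIs, described below, Rab44 stood at 185 and 230 CPM.

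Rab27a, which serves granule release, was highest among the whole classes in T-like cells, at 185 and 140 CPM. NK-like cells followed at 76.8 and 120 CPM and neutrophil-like cells at 53.6 and 110 CPM. In the finer cluster of neutrophil-like cells with a median of 4278 UMIs, described below, Rab27a stood at 179 and 206 CPM. Rab19 stood at 25.7 and 27.8 CPM in T-like cells and at 20.6 and 42.6 CPM in mast-like cells. Tbc1d10c, carabin, a negative regulator of calcineurin in lymphocytes, stood at 135 and 124 CPM in T-like cells, 96.3 and 117 CPM in NK-like cells and 82.3 and 87.9 CPM in B-like cells, against 1.81 and 1.26 CPM in the compartment. Rab27b reached 23.8 and 33.6 CPM, Dennd2d 37.9 and 33.6 CPM and Rab3ip 69.2 and 68.9 CPM in NK-like cells.

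B-like cells held Rab30, a Golgi Rab, at 42.1 and 48.9 CPM, and Dennd5b at 292 and 220 CPM against 2.38 and 3.03 CPM in the compartment. Dennd5b also stood at 164 and 215 CPM in endothelial-like cells and at 31.0 and 44.6 CPM in stromal-like cells. Dennd3, an activator of Rab12, stood at 53.1 and 53.3 CPM in B-like cells and at 66.3 and 188 CPM in the 23 and 13 endothelial-like cells. In neutrophil-like cells Dennd3 stood at 38.4 and 62.2 CPM, and in their low-UMI cluster, described below, at 141 and 107 CPM. Stromal-like cells held Rab34 at 55.1 and 72.6 CPM, Rab23, a negative regulator of Hedgehog signalling, at 31.0 and 34.1 CPM, and Rab30 at 45.1 and 57.2 CPM. Tbc1d30, a GAP for Rab8, was above the compartment in mast-like cells at 27.5 and 33.8 CPM and in endothelial-like cells at 20.2 and 53.7 CPM.

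**Figure D4:**
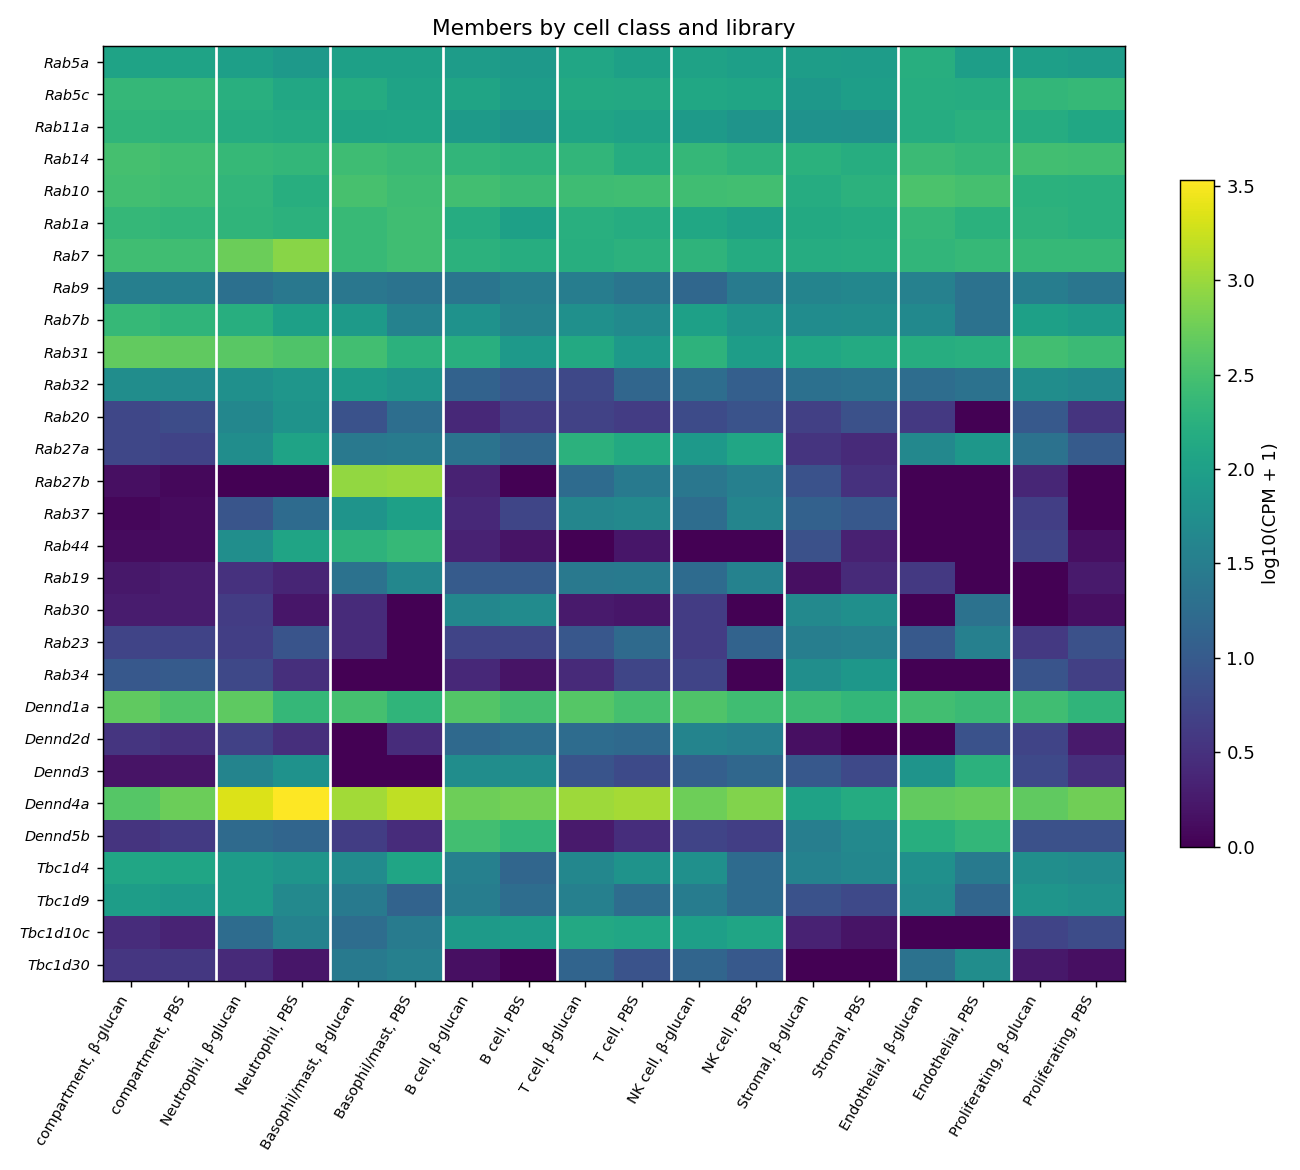
Level of 29 members in each cell class and library as log10(CPM + 1), with white lines between classes. The Rabs of the general pathways are bright in every column, whereas Rab27b, Rab44 and Rab37 are bright in mast-like cells and Dennd4a in neutrophil-like cells. Rab27a is bright in T-like, NK-like and neutrophil-like cells, the last shown as the whole class.

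In the opposite direction, some members at 20 CPM in the compartment were higher there than in any other class in both libraries. These were Rab7b, Rab14, Rab11a, Rab31, Dennd1a, Dennd4c and Tbc1d9. Some margins were narrow: the ratios over the next class were 1.06 and 1.0044 for Rab14, 1.04 and 1.16 for Dennd1a. They were 1.07 and 1.26 for Tbc1d9, and widest for Rab7b at 1.40 and 2.02. The share of all genes that were highest in the compartment was not counted. Rab31 stood at 474 and 465 CPM in the compartment and at 169 and 77.5 CPM in B-like cells. The B-like values of Rab31 differed by a log2 ratio of 1.13 (0.85 to 1.41) while C1qa differed in the same direction in those cells, at 700 and 377 CPM, and the part of free RNA or doublets in the Rab31 difference was not tested. Tbc1d9 showed the same, at 90.2 and 76.9 CPM in the compartment and at 30.8 and 17.6 CPM in B-like cells.

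Of the 4480 genes at 20 CPM in all 9 classes, 4.02% were higher with β-glucan in every class and 1.36% lower in every class. Among 25 Rab GTPases, 13 TBC genes and 7 DENN genes at that level, Rab14, Rab40c, Dennd1a and Dennd6a were higher in all 9. Dennd4a was lower in all 9. These counts go by direction alone, whatever the counting interval. Rab14 and Dennd1a were highest in the compartment, by narrow margins, and C1qa was higher with β-glucan in each other class except the stromal-like cells. The part of free RNA or doublets in these directions was not tested. Dennd4a stood at 1105 and 1542 CPM in mast-like cells (-0.48, -0.63 to -0.33), at 106 and 147 CPM in stromal-like cells (-0.48, -0.73 to -0.23) and at 1028 and 1129 CPM in T-like cells (-0.14, -0.24 to -0.03). In endothelial-like cells the interval of Dennd4a included 0 (-0.47 to 0.34).

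The neutrophil-like values needed a closer account, because the class differed between the libraries in kind. Its median UMIs were 9561 with β-glucan and 4606.5 with PBS, and C1qa stood in it at 65.2% and 37.6% of the compartment level. At a finer clustering the class split into a cluster of 108 and 127 cells with a median of 4278 UMIs and another of 148 and 47 cells with a median of 18193 UMIs and C1qa at 1876 and 1496 CPM, and 32.3% of the latter carried the highest doublet scores. Over the whole class Dennd4a stood at 2216 and 3400 CPM (-0.62, -0.67 to -0.57). In the low-UMI cluster alone Dennd4a was higher with β-glucan, at 6180 and 5349 CPM (0.21, 0.14 to 0.28), and in the high-UMI cluster lower, at 1597 and 2013 CPM (-0.33, -0.41 to -0.26). The count of 9 of 9 classes for Dennd4a thus held only with the neutrophil-like class taken whole, a split looked at after the data were seen.

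In the low-UMI neutrophil cluster Rab44 stood at 185 and 230 CPM, Rab20 at 136 and 106 CPM and Rab27a at 179 and 206 CPM, each with an interval that included no difference. Rab7 stood there at 1240 and 1311 CPM and Rab8b at 1429 and 1119 CPM (0.35, 0.20 to 0.51). Rab7 in the whole neutrophil-like class stood at 549 and 799 CPM, its highest level in any class.

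**Figure D5:**
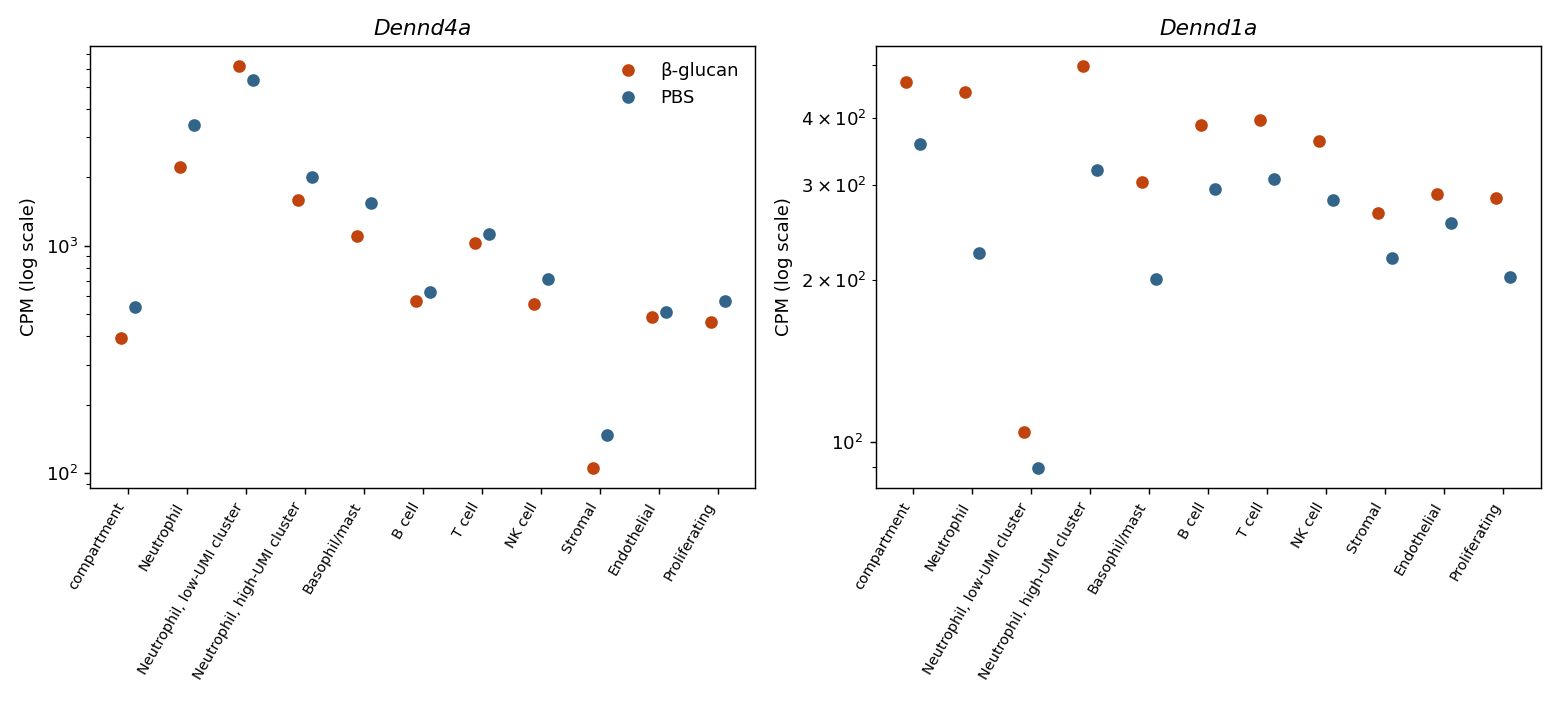
Level of Dennd4a (left) and Dennd1a (right) in each cell class on a log axis of CPM, β-glucan in orange and PBS in blue, with the neutrophil-like class also shown as its low-UMI and high-UMI clusters. Dennd4a lies lower with β-glucan in each whole class but higher in the low-UMI neutrophil cluster, and Dennd1a lies higher with β-glucan in every class.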

How the data were processed

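The authors deposited filtered matrices of whole-number UMI counts per gene and barcode for each library, made with Cell Ranger 7.0.0 on GRCm39 and Ensembl genes (mm10 is also named in the labels); strand and intron settings were not given in the sources used here. Cells under 500 genes or over 10% mitochondrial UMIs were removed, the limits of the study's methods. The study reported 7196 and 5760 cells, the same numbers as the deposited barcodes before this filter. The cells kept here are therefore fewer than the set it reported. Counts of both libraries were normalised with sctransform 0.4.2 in Seurat 5.3.0 (R 4.3.3) and clustered from 30 principal components at resolution 0.7, with 182 genes (members and pathway genes) left out of the components. Clusters were named from fixed markers. Scrublet (scanpy 1.11.5) called 0 and 3 cells, so it did not work here and doublets were kept; the 328 and 210 cells of highest score were left out in an alternative. UMIs were summed per library and class, scaled to CPM, and compared as log2 ratios with exact conditional binomial 95% intervals (scipy 1.17.1). The calculation was tested on simulated counts. With 1 library per group no test was run. Gene spans came from GENCODE on GRCm39, which matched 31870 of 32524 features. Promoter windows came from RefSeq (GRCm38.p6).

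The genes named were those at 20 CPM or more past a 1.2-fold ratio (at most 10 up and 5 down), those 4-fold above the compartment in a class at 20 CPM in both libraries, 21 fixed Rabs of each trafficking step, the 11 members named by the study, and the 5 with the widest range between clusters. Rab1b, Rab7b, Rab8b, Rab24, Rab28, Rab29 and other members outside this rule were named after their values were seen. The members and lists were chosen with earlier results of these data known.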

Additional observations from a re-analysis of the deposited data

Results flagged for a closer look

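In 4 members the libraries differed by at least 1.5-fold in opposite directions in different clusters of the compartment, each with a counting interval that excluded 0. The difference between the clusters was not tested, and each rests on few UMIs. The share of all genes that met the same rule was not counted, so the 4 have no background beside them. Tbc1d8 was higher with β-glucan in cluster 2, led by Vsig4 and S100b, at a log2 ratio of 0.92 (90 and 39 UMIs), and lower in cluster 9, led by Plac8 and Chil3, at -0.77 (57 and 82 UMIs). Rab27a was higher in cluster 6, led by Gpnmb and Apoe, at 2.01 (35 and 7 UMIs), and lower in cluster 5, led by Fxyd2 and Tubb3, at -1.04 (15 and 31 UMIs). Rab38 was higher in cluster 6 at 1.53 (25 and 7 UMIs) and lower in cluster 5 at -2.99 (1 and 8 UMIs). Rab3b was higher in cluster 5 at 2.33 (20 and 4 UMIs) and lower in cluster 0, led by Ednrb and Cd209f, at -3.13 (2 and 13 UMIs).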

How the results depend on the processing

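The counts were small and moved with the settings. Rab GTPases past the fold downward numbered 1 in place of 0 (Rab20, close to the fold) under the stricter filter, totals without mitochondrial and ribosomal genes, TMM, equal weight per cell or per cluster, thinning, pairing on long-gene UMIs, members kept in the components, the highest doublet scores left out, and without the cluster of PBS cells alone (an alternative added after seeing the data), and 2 at a fold of 1.1. Rab GTPases past it upward numbered 0 under pairing and at a fold of 1.5, 2 at a minimum of 1 CPM and 3 at a fold of 1.1. TBC genes past it upward numbered 2 over all cells of the sort, with equal weight per cell and at a minimum of 1 CPM, 3 with equal weight per cluster, 0 under pairing and at a fold of 1.5, and 16 at a fold of 1.1. DENN genes past it upward numbered 2 with equal weight per cluster and at a minimum of 50 CPM and 0 under pairing and at a fold of 1.5; those past it downward numbered 2 at a minimum of 1 CPM and 0 at a fold of 1.5. At 50 CPM, 13 of 14 TBC and 5 of 6 DENN genes were higher. Members 4-fold above the compartment numbered 25 at a fold of 2 and 10 at a minimum of 50 CPM in the class.

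Under TMM, which moved the median of all genes to -0.00, 17 of 37 Rab GTPases were higher, with a median of -0.016; under pairing 14 of 37 Rab, 17 of 29 TBC and 7 of 12 DENN genes were higher and the Rab median was -0.017. Under pairing the log2 ratios of many members turned negative, among them Dennd4c (-0.029), Dennd5a (-0.0017), Rab31 (-0.11) and Tbc1d4 (-0.20). Rab28 (-0.052), Rab8b (-0.019), Tbc1d14 (-0.097), Tbc1d15 (-0.035) and Dennd1c (-0.028) turned as well, and Rab7b went from 0.15 to 0.016. Weighting clusters equally, Rab31 turned to -0.019, Rab11a to -0.0037 and Dennd4b to -0.0031, among others. TMM turned Rab31 to -0.00055, again among others. Dennd4a in neutrophil-like cells turned to 0.21 in the low-UMI cluster and stood at -0.33 in the high-UMI cluster, a split added after seeing the data. Causes not given by a setting's own construction were not tested. Macrophage-like clusters alone were not run, since 2 of them had an osteoclast marker among their leading genes. Like the other macrophage-like clusters, these 2 had no macrophage marker there. No paired analysis was possible because each group has 1 library.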

Other observations

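Outside the compartment the same roles were counted in each class among genes with a mean of 20 CPM or more there. In stromal-like cells 12 of 34 Rab GTPases were higher with β-glucan, beside 44.9% of all genes. Their median on the log2 scale was -0.07, where all genes had a median of -0.04. In B-like cells 19 of 29 Rab GTPases and 14 of 18 TBC genes were higher, beside 59.7% of all genes. Their medians were 0.09 and 0.26, beside 0.07 for all genes. In NK-like cells the medians were 0.09 for the Rab GTPases, 0.23 for the TBC genes and 0.22 for the DENN genes, beside 0.04 for all genes. In mast-like cells 9 of 21 TBC genes were higher, with a median of -0.14, beside 52.6% of all genes higher and a median of 0.03. In T-like cells 11 of 19 TBC genes were higher (median 0.07), beside 56.2% of all genes (0.06). In endothelial-like cells 10 of 23 were (-0.16), beside 50.8% (0.00). In neutrophil-like cells 13 of 20 were (0.25), beside 60.5% (0.11), and in proliferating cells 14 of 18 (0.20), beside 53.0% (0.02).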
